A study of Homo sapiens with 17 samples.

Results

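The library labelled E7 is 1 of 17 sequenced libraries of K562, an established human chronic myeloid leukaemia line with erythroid and megakaryocytic features that carries the BCR-ABL1 fusion. It was compared with the 12 other libraries whose plasmid labels carry no number prefix: Neg, GFP, RFP, TTR, TRPC5OS, ADORA2A, UBE2V1, COL6A6, LAPTM4B 1, LAPTM4B 2, GOLGA8N 1 and GOLGA8N 2. The study, whose title concerns GOLGA8 and the uptake of antisense oligonucleotides (ASOs, short synthetic nucleic acids that bind RNA), put CRISPR plasmids into the cells by electroporation and then gave an ASO. Cells were processed on day 6, and total RNA was read from its 3′ end with molecular tags of 12 bases. All 17 libraries share the cell line, the electroporation, the ASO step and the day, and differ in the plasmid label. The sources used here do not say what E7 or Neg stands for, what the prefixes 20, 21, 22 and 23 mean, or which ASO was given and at what dose. The cells are labelled lymphoblasts. In E7, 1 of 8 B-cell marker genes had a read (CD79A, MS4A1 and PAX5 were at 0), whereas all 11 K562 markers had reads.

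E7 has no replicate, and nothing in the labels says whether the 17 libraries came from separate cultures. Each gene in E7 was therefore placed above, inside or below the lowest and highest of the 12 libraries, in counts per 1000000 reads in genes (CPM). An edgeR quasi-likelihood test then asked whether this 1 library departed from the spread of the 12, assuming that it varies as they do. Such a p-value says nothing about a repeat of E7, and the 12 carry different plasmids. E7 held 4162542 reads, of which 4016411 fell in genes, and the 12 held 569057 (GFP) to 4154398 (ADORA2A). A gene at 0 reads in E7 could have been present at up to 0.747 CPM, the level of 3 reads, against 5.45 CPM in the shallow GFP library, and these floors cover counting error only. Over 9372 genes with a mean of at least 5 CPM, E7 lay above all 12 for 649 genes, or 6.92%, and below all 12 for 564, or 6.02%. For each gene 1 of the 13 libraries is the highest and 1 the lowest. Were the 13 interchangeable, each would hold a share of about 0.0769 of genes on either side. By CPM with all 13 libraries, E7 was under that for both. Without the shallow GFP library, 841 of 9319 genes lay above and 749 below. By the authors' deposited TPM, a unit scaled for transcript length, the counts were 342 above and 828 below, with a median log2 ratio over all genes of -0.09. Whether E7 lay under an even share thus depended on the GFP library and on the unit. The edgeR test called 7 genes higher in E7 (0.0747%) and 1 lower (0.0107%) at an adjusted p under 0.05, while 401 genes had an unadjusted p under 0.05 against 469 that chance gives. For a single measure, 1 library among 13 cannot reach an exact two-sided permutation p below 0.0769, so measures of whole libraries are given without a test.

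The gene groups described here have known roles. When oxygen is scarce, hypoxia-inducible factors raise glucose transporters, glycolytic enzymes and mitophagy receptors, and bind DNA at a short core sequence. When sterols are scarce in the endoplasmic reticulum, SREBP transcription factors are released and raise the enzymes of cholesterol and fatty acid synthesis, with the CCAAT-binding factor NF-Y as a frequent partner. Mitochondrial DNA is copied into long transcripts in which tRNAs lie between the ribosomal and messenger RNAs and are cut out at their ends. In K562 cells, embryonic and fetal globins are the main products of the erythroid programme.

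Of the 7 genes called higher, 3 encode mitochondrial tRNAs: MT-TV for valine, MT-TD for aspartate and MT-TL1 for leucine. Their sequences, and that of the threonine tRNA MT-TT, are shown because these short genes lie directly beside larger transcripts. They are read from the GENCODE 29 transcripts (GRCh38), and capitals mark the anticodon.
MT-TV: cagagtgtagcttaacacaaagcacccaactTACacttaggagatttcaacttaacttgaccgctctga
MT-TD: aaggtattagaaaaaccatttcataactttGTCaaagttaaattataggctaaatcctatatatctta
MT-TL1: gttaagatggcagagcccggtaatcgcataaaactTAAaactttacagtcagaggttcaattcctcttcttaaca
MT-TT: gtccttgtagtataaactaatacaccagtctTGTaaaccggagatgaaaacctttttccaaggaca
MT-TV occupies chrM:1602-1670, between the small ribosomal RNA MT-RNR1 and the large one, MT-RNR2, and MT-TL1 follows MT-RNR2 at chrM:3230-3304. MT-TD, at chrM:7518-7585, precedes the cytochrome oxidase messenger MT-CO2, and MT-TT, at chrM:15888-15953, follows the cytochrome b messenger MT-CYB. All 4 are on the plus strand.

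MT-TL1 stood at 4121 CPM in E7, while the 12 ran from 1046 through a median of 1574 to 2152 CPM. MT-TV was at 3293 CPM, against 1093 through a median of 1356 to 1815 CPM. MT-TD was at 256 CPM, against 27.3 through a median of 48.3 to 83.4 CPM. E7 thus lay clear of all 12 for each of these tRNAs. The fold over the median of the 12 was 2.62 for MT-TL1, with an edgeR log2 difference of 1.38 ± 0.23 (SE, adjusted p = 0.0142). It was 2.43 for MT-TV (1.23 ± 0.19, edgeR adjusted p = 0.00151) and 5.30 for MT-TD (2.27 ± 0.36, edgeR adjusted p = 0.00431). Without GFP the edgeR call on MT-TL1 was lost (adjusted p = 0.0547), whereas those on MT-TV and MT-TD remained. MT-TT was at 168 CPM against 55.9 to 99.0 CPM and just missed the edgeR threshold (adjusted p = 0.0543). It was called by edgeR when RFP (adjusted p = 0.0318), GFP (0.0356) or COL6A6 (0.0405) was left out, and by DESeq2 (0.0122) and limma-voom (0.00493).

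All 22 mitochondrial tRNA genes were tested, a list added after the calls on its members were seen. Of these, 12 (54.5%) lay above all 12 libraries and none below, against 6.92% of all genes above. The median log2 ratio over the 22 was 0.48, against -0.003 over all genes tested. Beside those already named, MT-TF, MT-TI, MT-TL2, MT-TP, MT-TQ, MT-TR, MT-TW and MT-TY lay above the range.

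The larger mitochondrial transcripts beside the tRNAs were placed differently. MT-RNR1 was at 4739 CPM, inside 3693 to 5459.8 CPM, and MT-RNR2 at 21131 CPM, just above the highest of the 12 at 20300.4 CPM. MT-CO2 was at 15683 CPM, under the lowest of the 12 at 15950.0 CPM, and MT-CYB at 6142 CPM, under 6445 CPM. Of the 13 mitochondrially encoded protein genes, 5 lay below all 12 (MT-ATP6, MT-CO2, MT-CO3, MT-CYB and MT-ND2), none above, and edgeR called none. Nuclear copies of mitochondrial genes can draw reads, and MT-ATP6 summed with its copy MTATP6P1 was at 12054 CPM against 14837 to 21331 CPM. As a share of reads in genes, mitochondrial tRNA took 2.43% in E7 against 1.27% to 1.85% in the 12, and the encoded proteins took 10.3% against 10.5% to 13.1%. In the 4 number-prefixed libraries these shares were 1.81% to 2.58% and 9.26% to 10.4%, so E7 lay inside those 4 for both.

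**Figure D1:**
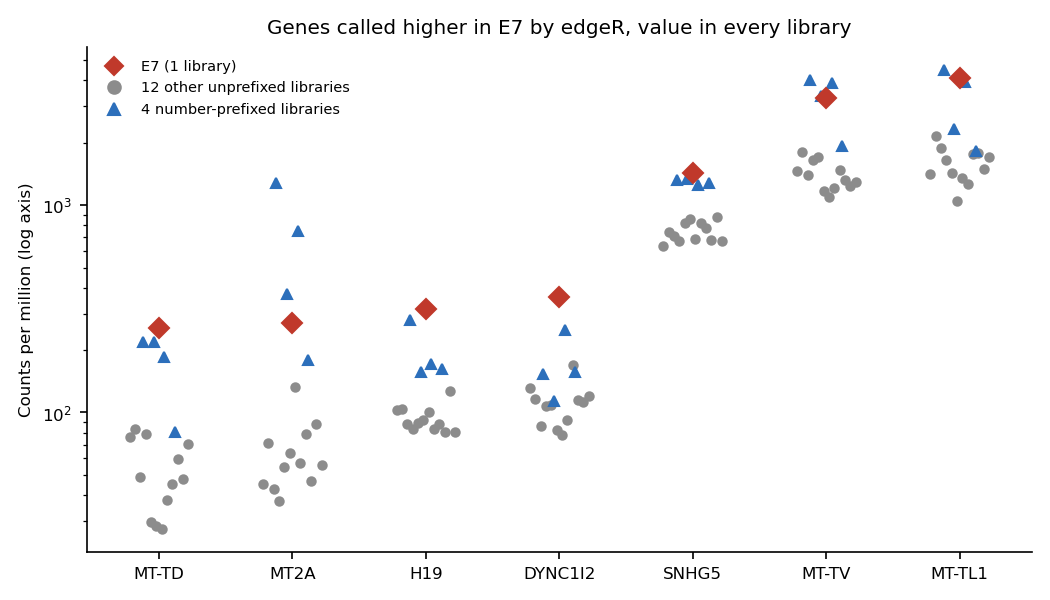
CPM (log axis) of the 7 genes that edgeR called higher in E7, in every library: the red diamond is E7, grey circles are the 12 other unprefixed libraries and blue triangles the 4 number-prefixed ones. E7 lies above every grey point for each gene, and for MT2A, at 271 CPM, it lies among the blue points, which run from 179 to 1283 CPM.

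The other 4 genes called higher have different roles. H19, an imprinted long noncoding RNA of fetal tissues (chr11:1995176-2001470, minus strand), was at 317 CPM in E7, while the 12 ran from 80.2 through a median of 88.5 to 127 CPM. Its edgeR log2 difference was 1.77 ± 0.21 (SE, adjusted p = 4.78e-05), the lowest p of all genes tested. DYNC1I2, an intermediate chain of the dynein motor that carries cargo along microtubules (chr2:171687409-171748420, plus strand), was at 361 CPM, against 78.2 through a median of 111 to 169 CPM. The edgeR log2 difference was 1.70 ± 0.26 (SE, adjusted p = 0.00139). For both genes E7 lay above all 12 and above the 4 number-prefixed libraries. Those 4 ran from 158 to 281 CPM for H19, all above the highest of the 12, and from 114 to 250.2 CPM for DYNC1I2. Against those 4 the edgeR log2 difference was 0.71 for H19 and 1.09 for DYNC1I2, and edgeR called neither.

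SNHG5, a noncoding host gene of small nucleolar RNAs (chr6:85660950-85678748, minus strand), was at 1435 CPM in E7, with the 12 from 636 through a median of 727 to 873 CPM. The edgeR log2 difference was 0.94 ± 0.18 (SE, adjusted p = 0.017). The small RNA genes MIR675, within H19, and SNORD50B, within SNHG5, held 0 reads in E7 and in all of the 12. Among the 18 tested nuclear noncoding genes listed with SNHG5, ZFAS1 (432 CPM against 207 to 333) and GAS5 also lay above all 12, and SNHG12, NEAT1 and SNHG8 lay below.

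MT2A encodes metallothionein 2A, a small protein that binds zinc and copper and is induced by metals, glucocorticoids and oxidative stress (chr16:56608199-56609497, plus strand). In E7 it was at 271 CPM, while the 12 ran from 37.6 through a median of 56.4 to 133 CPM. The edgeR log2 difference was 2.11 ± 0.34 (SE, adjusted p = 0.00431). The highest of the 12 was GFP, and the next was GOLGA8N 1 at 87.7 CPM. The 250 bases before the MT2A start site, at chr16:56608334-56608583 (RefSeq, GRCh38.p14, plus strand), are shown with capitals for each match on either strand to TGCACNC or TGCGCNC, the core of the metal response element.
MT2A: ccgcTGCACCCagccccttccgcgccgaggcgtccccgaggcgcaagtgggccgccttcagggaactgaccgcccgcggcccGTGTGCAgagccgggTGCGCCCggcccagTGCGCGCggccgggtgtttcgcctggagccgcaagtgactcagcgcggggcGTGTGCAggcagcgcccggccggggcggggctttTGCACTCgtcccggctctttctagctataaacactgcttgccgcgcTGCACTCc
The window holds 7 separate runs of capitals. At least 1 match is present in 34.3% of the 7172 promoters of genes tested and in 24.7% of all 27305 promoters in the table. MTF1, the metal-sensing factor that binds this element, was at 11.5 CPM against 0.575 to 9.82 CPM and was not called by edgeR. MT1E, another metallothionein, was inside the range at 8.96 CPM. The zinc exporter SLC30A1, also at 8.96 CPM in E7, was inside the range through the shallow GFP library alone, at 5.45 CPM. Every other library of the 12 was at 9.47 CPM (ADORA2A) or higher, and the prefixed libraries at 17.0 CPM (23-GOLGA8N) or higher.

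The 1 gene called lower, HLA-E (chr6:30489467-30494205, plus strand), rests on how its reads were assigned. It encodes a major histocompatibility molecule that presents peptides to natural killer cells. HLA-E had 0 reads in E7 on transcripts matched to the gene, and the 12 ran from 18.5 through a median of 35.9 to 72.2 CPM, for an edgeR log2 difference of -9.76 ± 1.44 (SE, adjusted p = 0.00139). The deposited tables also list 18 transcripts named HLA-E that match no gene of the annotation used here, and these held 148 reads in E7. The sum of both was 36.8 CPM in E7, inside the 24.6 to 72.2 CPM of the 12. With transcripts joined by symbol edgeR did not call it (log2 difference -0.26, adjusted p = 0.9989), nor did limma-voom on matched transcripts (0.69).

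GTF2IRD2B and its near-identical copy GTF2IRD2, which encode transcription factors of the Williams-Beuren region, were placed on opposite sides. GTF2IRD2B was at 0.965 CPM in E7 against 10.0 to 38.3 CPM (edgeR adjusted p = 0.0556, 0.0287 without RFP and 0.0356 without GFP), whereas GTF2IRD2 was at 25.9 CPM, above the highest of the 12 at 19.9 CPM. Their sum, 26.8 CPM, lay inside 13.8 to 46.4 CPM. How reads are divided between such copies is uncertain.

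Ranked by size of the ratio, PWP2, SNORD13, RNU2-63P, NAPB, RRAGC and ACSL6 were among those furthest below the 12, each under 1 CPM in E7, with medians of 10.9 to 18.5 CPM in the 12. MARCH8, AL135905.2, PNCK, DANT2 and HDAC4 were among those furthest above. The noncoding DANT2 was at 34.1 CPM, while the 12 ran from 0.499 through a median of 6.65 to 12.5 CPM. With all 12 libraries edgeR called none of these genes (adjusted p from 0.0661 for RNU2-63P to 0.999), and all are of low abundance. RNU2-63P was called by edgeR without RFP (adjusted p = 0.0287) or without GFP (0.0418), and limma-voom called MARCH8 (0.0418), PNCK (0.0464) and DANT2 (0.0119).

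Genes of glycolysis and the hypoxia response lay above the range more often than genes as a whole. Of 30 tested, 16 (53.3%) lay above all 12, against 6.92% of all genes, and 1, the hexokinase HK1, lay below. The median log2 ratio was 0.68, against -0.003 over all genes, and edgeR called none of the 30. The 16 include the glucose transporters SLC2A1 (101 CPM against 44.6 to 85.5) and SLC2A3 (187 CPM against 46.7 to 160.4) and the lactate exporter SLC16A3 (17.9 CPM against 2.74 to 14.4). They also include the enzymes ALDOA, ALDOC, GAPDH, PGK1, ENO1, ENO2, PKM and LDHA. GAPDH was at 1644 CPM in E7, while the 12 ran from 687 through a median of 983 to 1385 CPM (edgeR log2 difference 0.73 ± 0.19, adjusted p = 0.351), and summing it with its pseudogenes left it above all 12. limma-voom called GAPDH (adjusted p = 0.0464). LDHA, which makes lactate from pyruvate, was at 1196 CPM against 474 to 902 CPM (edgeR adjusted p = 0.57).

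The remaining members above the range are hypoxia targets with other roles. NDRG1, a stress-responsive growth regulator, was at 121 CPM in E7, while the 12 ran from 6.98 through a median of 27.4 to 53.1 CPM (edgeR log2 difference 2.19 ± 0.56, adjusted p = 0.364). limma-voom, a test on log counts, called it (adjusted p = 0.00448). PDK1, which inhibits pyruvate dehydrogenase, was at 37.1 CPM against 2.86 to 23.6 CPM. The mitophagy receptors BNIP3 and BNIP3L were at 83.8 CPM (11.4 to 59.99) and 65.2 CPM (16.3 to 58.2), so these catabolic targets lay on the same side as the enzymes. ANKRD37, an ankyrin-repeat gene, was at 12.2 CPM, 49 reads, against 0 to 11.7 CPM. Inside the range were the growth factor VEGFA (37.3 CPM against 9.86 to 39.5), the collagen hydroxylase P4HA1 and the oxygen sensors EGLN1 and EGLN3.

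The promoters of ANKRD37 and LDHA are shown as examples of the hypoxia core sequence, with capitals for ACGTG or GCGTG on either strand, in the 250 bases before the start site (RefSeq, GRCh38.p14). ANKRD37 is at chr4:185396591-185396840 and LDHA at chr11:18394313-18394562, both on the plus strand.
ANKRD37: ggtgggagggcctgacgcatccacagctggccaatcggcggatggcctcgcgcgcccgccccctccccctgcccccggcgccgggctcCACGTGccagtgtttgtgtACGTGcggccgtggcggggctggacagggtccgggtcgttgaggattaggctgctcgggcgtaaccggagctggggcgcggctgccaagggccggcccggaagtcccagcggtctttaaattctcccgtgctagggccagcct
LDHA: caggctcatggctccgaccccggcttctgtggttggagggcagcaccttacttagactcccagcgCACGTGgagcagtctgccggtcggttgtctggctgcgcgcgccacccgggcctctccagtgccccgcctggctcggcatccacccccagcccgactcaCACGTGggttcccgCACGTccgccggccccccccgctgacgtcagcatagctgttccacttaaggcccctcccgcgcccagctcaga
A match was held by 15 of the 26 list members with a promoter in the table (57.7%), against 60.1% of the 7172 promoters of genes tested and 43.1% of all 27305 promoters. By position, 9 of the 13 members above all 12 held one (69.2%) and 6 of the 13 others (46.2%). The core was more common in the sterol and fatty acid list, at 19 of 25 (76.0%). It is short, and a match describes the letters only.

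Genes of cholesterol and fatty acid synthesis were placed alike. Of 32 tested, 15 (46.9%) lay above all 12 and 1 below, with a median log2 ratio of 0.56, and edgeR called none. Those above include ACSS2, which makes acetyl-CoA from acetate, and MVK, IDI1 and FDPS of the isoprenoid steps. They also include FDFT1 and SQLE of the steps to squalene and its epoxide, and MSMO1, NSDHL, EBP and DHCR7 of the late steps. The other 16 were inside the range, among them HMGCS1, PMVK, MVD, LSS and SC5D of the sterol route. ACLY, ACACA, ELOVL6 and FADS1 of the fatty acid branch were inside as well. ACSS2 was at 97.6 CPM in E7, while the 12 ran from 15.2 through a median of 33.9 to 66.8 CPM (edgeR log2 difference 1.44 ± 0.42, adjusted p = 0.513), and limma-voom called it (adjusted p = 0.0465). DHCR7 was at 182 CPM against 78.5 to 142 CPM (edgeR log2 difference 0.84 ± 0.25, adjusted p = 0.505). MSMO1 was at 69.3 CPM against 21.5 to 46.9 CPM.

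Regulators of the sterol pathway lay above the range with part of its enzymes. INSIG1, which holds SREBP in the endoplasmic reticulum, was at 239.5 CPM (81.0 to 196), and SREBF2, which encodes the sterol-regulated SREBP, at 124 CPM (56.5 to 115). The fatty acid desaturase SCD was at 586 CPM (272 to 530.3). By the deposited TPM, 8 of the 32 lay above the range rather than 15.

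The promoters of INSIG1, at chr7:155297628-155297877, and FDPS, at chr1:155308616-155308865 (RefSeq, GRCh38.p14, plus strand), are shown with capitals for CCAAT on either strand.
INSIG1: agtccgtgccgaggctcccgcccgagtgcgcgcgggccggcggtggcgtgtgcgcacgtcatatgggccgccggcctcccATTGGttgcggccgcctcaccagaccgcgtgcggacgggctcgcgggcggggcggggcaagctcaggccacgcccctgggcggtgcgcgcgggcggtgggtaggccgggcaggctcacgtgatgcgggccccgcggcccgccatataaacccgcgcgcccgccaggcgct
FDPS: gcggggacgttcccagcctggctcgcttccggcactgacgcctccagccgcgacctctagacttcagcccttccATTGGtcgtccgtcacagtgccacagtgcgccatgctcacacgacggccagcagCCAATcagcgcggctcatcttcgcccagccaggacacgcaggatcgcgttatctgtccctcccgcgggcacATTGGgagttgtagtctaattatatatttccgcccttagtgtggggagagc
CCAAT was present in 10 of the 11 members above all 12 with a promoter in the table (90.9%) and in 7 of the 14 others. It was present in 35.9% of promoters of genes tested, 41.3% of those of genes above all 12 and 33.0% of all promoters. The integrated stress response list, described below, held it in 13 of 20 (65.0%), near the 17 of 25 (68.0%) of the sterol list. The motif is short, and a match describes the letters only. A sterol element searched as TCACNCCAC on either strand was found in 1 of the 25, SREBF2.

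**Figure D2:**
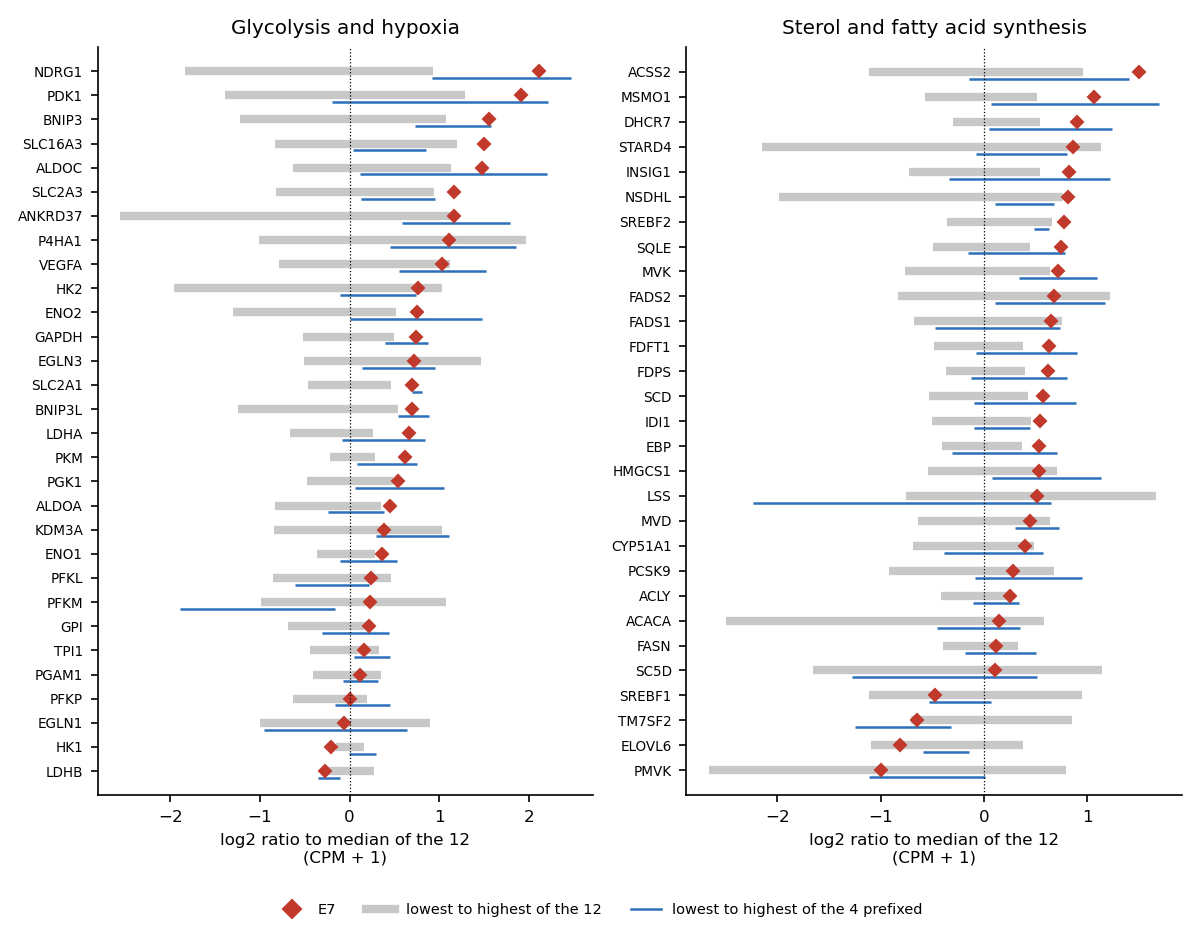
Tested members of the glycolysis and hypoxia list (30 shown) and of the sterol and fatty acid list (29 shown), as the log2 ratio of CPM plus 1 to the median of the 12. Red diamonds are E7, grey bars span the 12 and blue lines the 4 number-prefixed libraries, and the diamonds to the right of the grey bar, 16 and 13 of those shown, are members above all 12.

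The integrated stress response, in which ATF4 raises genes of amino acid supply, had 7 of 24 members above all 12 (29.2%, against 6.92% of all genes) and 2 below, with a median log2 ratio of 0.49. The median was 0.57, 0.46 and 0.60 in 22-LAPTM4B, 21-CTPS2 and 23-GOLGA8N and -0.02 in 20-ARSF. By the deposited TPM 4 members lay above in E7. The 24 genes summed to 3868 CPM in E7, inside the 3403 to 4534 CPM of the 12 and under their median of 4081 CPM. ATF4 itself was at 354 CPM against 184 to 332 CPM. ASNS, which makes asparagine, was at 284 CPM, while the 12 ran from 143 through a median of 152 to 210.3 CPM (edgeR log2 difference 0.84 ± 0.20, adjusted p = 0.162). DESeq2 and limma-voom called ASNS (adjusted p = 0.04896 and 0.04101). The cystine transporter subunits SLC7A11 and SLC3A2 were at 25.5 CPM (4.82 to 16.7) and 207 CPM (99.8 to 198). DDIT4, an inhibitor of mTORC1 that hypoxia also induces, was at 192 CPM (39.1 to 139), and SESN2 and DNAJB9 were the others above. The amino acid transporter SLC7A5 and the chaperone cofactor SDF2L1 lay below the range. An element bound by ATF4, TGATGNAA on either strand, is held by 4 of the 20 list members in the table and 1.21% of promoters of genes tested. By position, 1 of the 6 members above all 12 held it (16.7%, ASNS) and 3 of the 14 others (21.4%). The ASNS promoter, chr7:97872409-97872658 (minus strand, RefSeq, GRCh38.p14), is shown with capitals for this element.
ASNS: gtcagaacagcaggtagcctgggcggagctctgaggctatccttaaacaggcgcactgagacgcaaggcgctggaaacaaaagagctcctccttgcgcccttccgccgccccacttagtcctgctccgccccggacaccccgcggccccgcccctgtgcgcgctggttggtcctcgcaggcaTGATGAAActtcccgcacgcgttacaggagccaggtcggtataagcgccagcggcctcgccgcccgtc

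Globins were placed the other way. Of 9 tested genes in this list none lay above all 12 and 4 (44.4%) lay below, against 6.02% of all genes, and the median log2 ratio was -0.59. HBG2, a fetal gamma globin, was at 2236 CPM in E7, while the 12 ran from 3006 through a median of 3875 to 4777 CPM (edgeR log2 difference -0.82 ± 0.23, adjusted p = 0.445). HBZ, the embryonic zeta globin, was at 1175 CPM against 1429.7 to 3418 CPM, and AHSP, the chaperone of alpha globin, at 4.73 CPM, 19 reads, against 6.43 to 32.1 CPM. HBA2 was at 786 CPM against 939 to 1675 CPM. E7 was thus the lowest of the 13 for each of these, although edgeR called none of the 9.

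HBG1 and HBG2 are near-identical, as are HBA1 and HBA2, so the division of reads within each pair is uncertain. The sums, 2495 CPM for the gamma and 1265 CPM for the alpha pair, were below all 12 (3336 to 5183 and 1275 to 2614 CPM). The embryonic epsilon globin HBE1, at 540.0 CPM, lay inside 278 to 579 CPM. The 9 genes together took 0.551% of reads in E7, against 0.675% to 1.15% in the 12 and 0.648% to 0.952% in the 4 prefixed libraries, so E7 was the lowest of all 17. In bulk RNA, fewer erythroid cells and less globin RNA per cell cannot be told apart.

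Other erythroid genes were mostly inside the range. KLF1, a transcription factor that drives erythroid genes, was at 43.3 CPM, under the 53.7 to 125 CPM of the 12, and GFI1B, a repressor needed in erythroid and megakaryocytic cells, at 36.4 CPM, under 41.2 to 153 CPM. The other 16 of 18 tested regulators were inside, among them GATA1, TAL1, MYB and GATA2. In heme synthesis, 3 of 14 tested genes (21.4%, against 6.02% of all genes) lay below all 12, TMEM14C and SLC25A38 among them, and UROD lay above. The median log2 ratio was -0.47, but the 14 genes summed to 818 CPM in E7, inside the 679 to 951 CPM of the 12 (median 847). The transferrin receptor TFRC and the glycophorin gene GYPC were inside.

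Markers of other cell types lay inside the 12 in sum. T-cell markers summed to 84.3 CPM (42.9 to 144 in the 12, with CD2, CD8A, IL7R and CD3E at 0 and 6 of 10 with a read), monocyte markers to 12.7 CPM (9.04 to 34.5), fibroblast markers to 54.5 CPM (40.003 to 69.5) and epithelial markers to 352 CPM (247 to 402). The 11 K562 markers, which include globins, summed to 5532 CPM, below the 6378 to 10083 CPM of the 12.

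**Figure D3:**
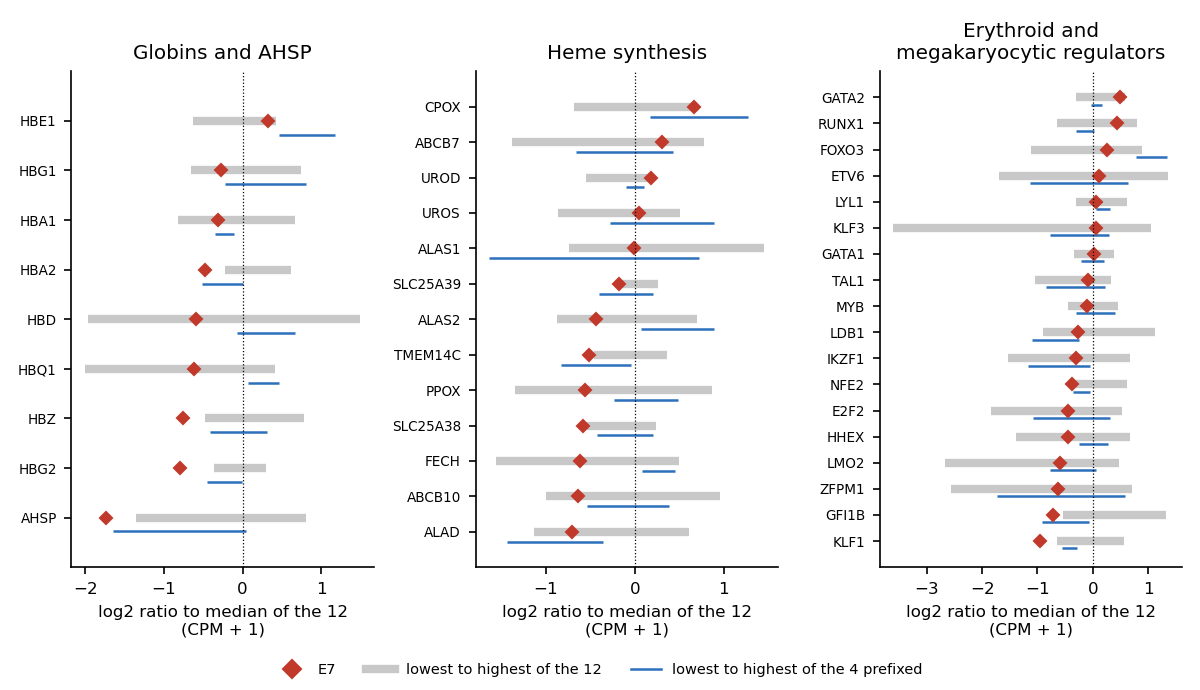
Tested globins (9 shown), heme synthesis genes (13 shown) and erythroid or megakaryocytic regulators (18 shown), as the log2 ratio of CPM plus 1 to the median of the 12. Red diamonds are E7, grey bars span the 12 and blue lines the 4 number-prefixed libraries; HBZ, HBG2, AHSP and KLF1 in E7 lie left of both.

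Genes of DNA replication tended to the low side. None of 47 lay above all 12 and 7 (14.9%) lay below, against 6.02% of all genes, with a median log2 ratio of -0.26, and edgeR called none. The median was -0.26 in 22-LAPTM4B and 23-GOLGA8N, -0.21 in 21-CTPS2 and -0.05 in 20-ARSF, so 2 of the 4 prefixed libraries were as low as E7. RFC4, a subunit of the clamp loader, was at 52.0 CPM against 79.6 to 127 CPM. CCNE1, the cyclin of S phase entry, was at 11.5 CPM against 20.0 to 50.4 CPM, and CDC6, an origin licensing factor, at 19.9 CPM against 21.8 to 55.8 CPM. MCM10, RFC3, UNG and PRIM1 were the others below. Without GFP, or by the deposited TPM, 11 of the 47 lay below. Of 34 mitosis genes 3 were below (8.82%, against 6.02% of all genes), CCNB1, NUSAP1 and CCNB2, and 1 above, CKS1B.

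RRM2, a subunit of ribonucleotide reductase, which makes the building blocks of DNA, was at 1.23 CPM in E7, inside the range of the 12. It was at 93.4 to 106.3 CPM in the 4 prefixed libraries, and it was the 1 gene that edgeR called in E7 against those 4 (0.0108% of 9240 genes, log2 difference -6.30 ± 0.50, SE, adjusted p = 6.01e-07). It was at 3.75 CPM or lower in Neg, TTR, LAPTM4B 2 and GOLGA8N 1 and at 111 to 151 CPM in the 8 others of the 12, so the 13 libraries fell into a low and a high set. An unmatched transcript without a symbol, chosen because it ran opposite to RRM2 over the libraries, was at 94.1 CPM in E7 and 115 to 134 CPM in those 4, and at 2.21 CPM or lower in all the rest. The sum was 95.4 CPM in E7, 112 to 153 CPM in the 12 and 94.7 to 107 CPM in the prefixed libraries.

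Cancer-testis genes, germline genes that K562 expresses, were mostly under the median of the 12 in E7. Of 28 tested, 26 had a ratio under 0 on the log2 scale and 2 above it, whereas 49.7% of all genes had one above 0. Below all 12 lay 3 of the 28 (10.7%, against 6.02% of all genes). The list median was -0.40 in E7, -0.34 in 22-LAPTM4B, -0.30 in 23-GOLGA8N, -0.19 in 21-CTPS2 and -0.12 in 20-ARSF, so the prefixed libraries were low as well. MAGEB2 was at 19.7 CPM, while the 12 ran from 41.3 through a median of 58.2 to 86.1 CPM (edgeR log2 difference -1.59 ± 0.40, adjusted p = 0.206). DESeq2 called it (adjusted p = 0.01279). MAGEC2 and GAGE12B were the others below, and GAGE copies are near-identical, so the division of reads between them is uncertain. Among 40 proteasome genes 5 lay below and 2 above, with the ATPase subunit PSMC5 at 38.1 CPM against 75.4 to 111 CPM (edgeR log2 difference -1.22 ± 0.30, adjusted p = 0.176, and 0.00774 by DESeq2). The proteasome shares were 12.5% below and 5.00% above, against 6.02% and 6.92% of all genes. In oxidative phosphorylation 13 of 75 lay below (17.3%, against 6.02% of all genes) and 2 above, and with TMM scaling 6 lay below, near the share of all genes.

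Several other lists held a larger share above the range than the 6.92% of all genes. Of 24 actin-linked and secreted genes 8 lay above and 1 below, among them AHNAK (239 CPM against 102 to 187), the filament protein gene VIM (881 CPM against 354 to 794), FLNA and TMSB4X, but by the deposited TPM 1 of the 24 lay above. Of 21 genes of BCR-ABL1 signalling 5 lay above: the transcription factor STAT5B (35.7 CPM against 9.55 to 23.6, called by limma-voom with an adjusted p of 0.0464), its feedback target CISH (52.5 CPM against 16.7 to 45.5), GAB2, CCND2 and MCL1. Among 14 AP-1 and immediate early genes, JUN was at 165 CPM against 41.8 to 113 CPM, and JUND and KLF6 were also above; limma-voom called JUN (adjusted p = 0.0465) and KLF6 (0.041). Cytosolic ribosomal protein genes went both ways, 12 of 78 above and 10 below. RPS27 was at 70.0 CPM against 101 to 412 CPM, and with its pseudogenes it was still below, at 78.7 CPM.

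Genes of the Golgi and endosomes were examined because the study concerns the uptake of oligonucleotides. Of 16 golgins tested, 2 lay above all 12 (12.5%, against 6.92% of all genes). GOLGA2, a tether of the cis-Golgi, was at 287 CPM against 141 to 243 CPM (edgeR log2 difference 0.74 ± 0.22, adjusted p = 0.481). GORASP2, a Golgi stacking protein, was at 98.6 CPM against 47.2 to 94.8 CPM. Of 47 vesicle coat and retrieval genes, 8 lay above (17.0%) and 4 below (8.51%), against 6.92% and 6.02% of all genes. Their median log2 ratio was 0.11 by CPM, but by the deposited TPM it was -0.09, as it was over all genes tested. The 8 were the mannose 6-phosphate receptor IGF2R (97.6 CPM against 42.3 to 83.1), the coat subunits COPG1, COPZ1, SEC13 and SEC24C, and ARFGAP1, STX6 and TMED9.

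Endocytosis and lysosomal genes are given beside the shares of all genes, 6.92% above and 6.02% below. Of 36 endocytosis genes 4 lay above (11.1%) and none below. Among the 4 were the dynamin DNM2 (279 CPM against 127 to 212), the clathrin assembly gene PICALM and RAB27A. Of 48 lysosomal genes 2 lay above (4.17%) and 5 below (10.4%), with the membrane protein gene LAMP2 at 42.5 CPM against 55.6 to 83.6 CPM. Of 30 genes for proteins known to bind oligonucleotides 3 lay above (10.0%) and 4 below (13.3%). HNRNPK was above, at 1142 CPM against 773 to 1041 CPM, and PARP1 below, at 64.2 CPM against 83.1 to 128 CPM. In all the lists together edgeR called MT2A, SNHG5, MT-TV, MT-TD and MT-TL1 and no other member.

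**Figure D4:**
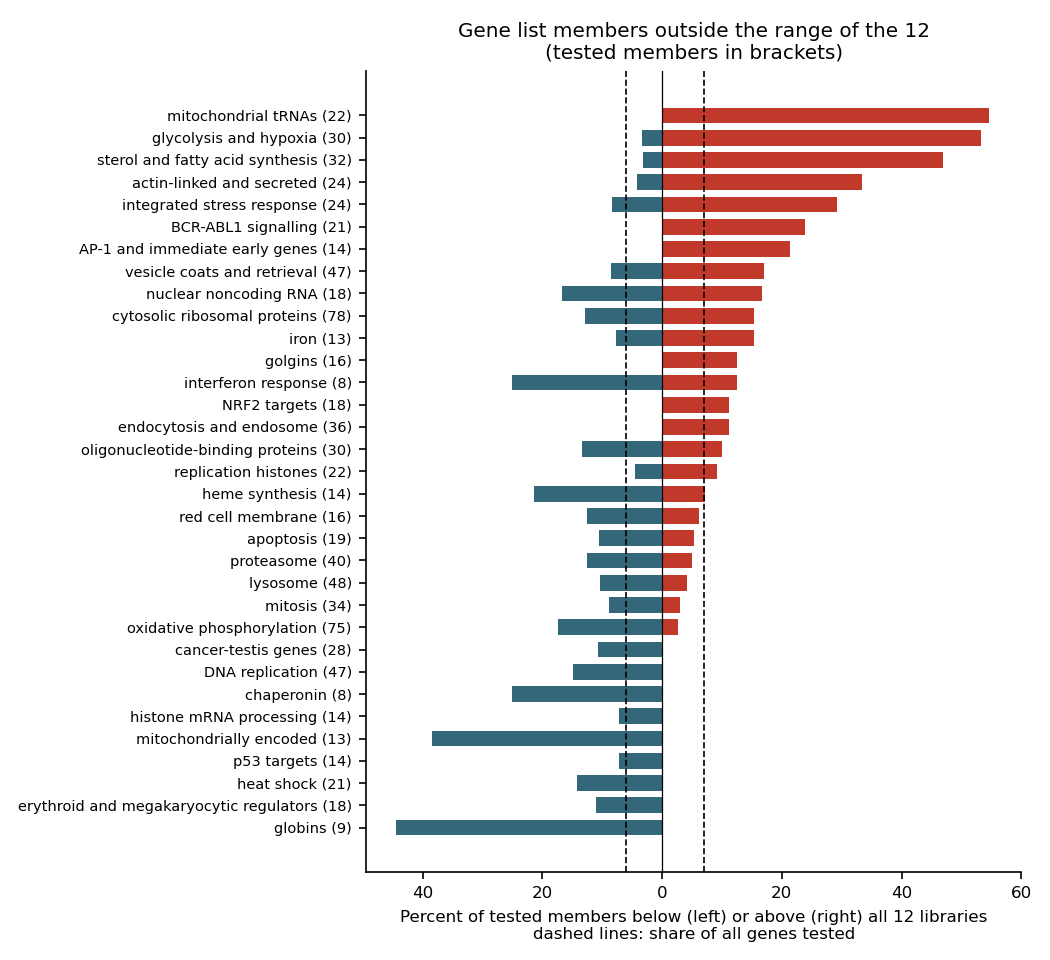
Percent of tested members of each list of at least 8 members that lay above (right, red) or below (left, teal) all 12 libraries; dashed lines are the shares of all genes tested, 6.92% and 6.02%. Mitochondrial tRNAs, glycolysis and hypoxia, and sterol and fatty acid synthesis extend furthest right, and globins furthest left.

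The genes named by the plasmid labels lay inside the 12 in E7 where they could be tested. LAPTM4B was at 204 CPM (160 to 281 in the 12), UBE2V1 at 89.1 CPM (68.7 to 129) and CTPS2 at 2.49 CPM (0 to 18.3). For CTPS2, with 10 reads in E7, the place inside the range rests on the shallow GFP library alone. GFP was at 0, where up to 5.45 CPM could have been missed. Every other library of the 12 was at 3.79 CPM (UBE2V1) or higher, and the prefixed libraries at 8.10 CPM (22-LAPTM4B) or higher. E7 was thus lower than every other library except GFP, and edgeR did not call CTPS2. TTR, ARSF, TRPC5OS and COL6A6 had 0 reads in E7, and GOLGA8N had 1. ADORA2A, an adenosine receptor gene, had 13 reads, 3.24 CPM, against at most 2.17 CPM in the 12, and was under the level tested.

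E7 correlated more highly with each of the 4 libraries with number prefixes than with any of the 12. These carry the labels 20-ARSF, 21-CTPS2, 22-LAPTM4B and 23-GOLGA8N and share the treatment and day. Over 5003 genes with a mean of at least 20 CPM, the Spearman correlation of E7 was 0.902 to 0.926 with the 4, 0.869 to 0.894 with 11 of the 12 and 0.777 with the shallow GFP library. All these values share the E7 library and are a description. Among themselves the 12 without GFP correlated at 0.873 to 0.915. When all 16 other libraries served as the reference, edgeR called 0 genes either way, with 242 at an unadjusted p under 0.05 against 467 that chance gives.

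For the called genes the values of the prefixed libraries stand beside E7 as follows. H19, at 317 CPM in E7, was at 158 CPM in 21-CTPS2, 162 CPM in 20-ARSF, 172 CPM in 23-GOLGA8N and 281 CPM in 22-LAPTM4B. DYNC1I2, at 361 CPM in E7, was at 114 to 250.2 CPM in the 4. SNHG5, at 1435 CPM in E7, was at 1257 to 1342 CPM in the 4. MT-TV, at 3293 CPM, was at 1922 CPM in 20-ARSF and at 3383, 3900.0 and 4031 CPM in 21-CTPS2, 23-GOLGA8N and 22-LAPTM4B. MT-TL1, at 4121 CPM, was at 1836 CPM in 20-ARSF, 2325 CPM in 21-CTPS2, 3915 CPM in 23-GOLGA8N and 4493 CPM in 22-LAPTM4B. Of the 4, 20-ARSF was thus the lowest for both tRNAs. MT-TD, at 256 CPM, was at 80.9 CPM in 20-ARSF and 184 to 220.0 CPM in the others. MT2A, at 271 CPM, was at 179 CPM in 20-ARSF, 374 CPM in 21-CTPS2, 755 CPM in 23-GOLGA8N and 1283 CPM in 22-LAPTM4B.

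List medians were split in the same way. For glycolysis and hypoxia, the median log2 ratio to the median of the 12 was 0.68 in E7, 0.64 in 22-LAPTM4B, 0.58 in 23-GOLGA8N, 0.55 in 21-CTPS2 and 0.09 in 20-ARSF, and -0.39 to 0.23 in the 12. For sterol and fatty acid synthesis it was 0.56 in E7, 0.46 in 22-LAPTM4B, 0.62 in 21-CTPS2, 0.51 in 23-GOLGA8N and -0.10 in 20-ARSF. These values are ratios to the same 12 libraries, so those of E7 and of the 4 are not independent of each other. Globins were placed differently, at -0.59 in E7, -0.35 to 0.24 in the 4 and -0.29 to 0.61 in the 12.

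**Figure D5:**
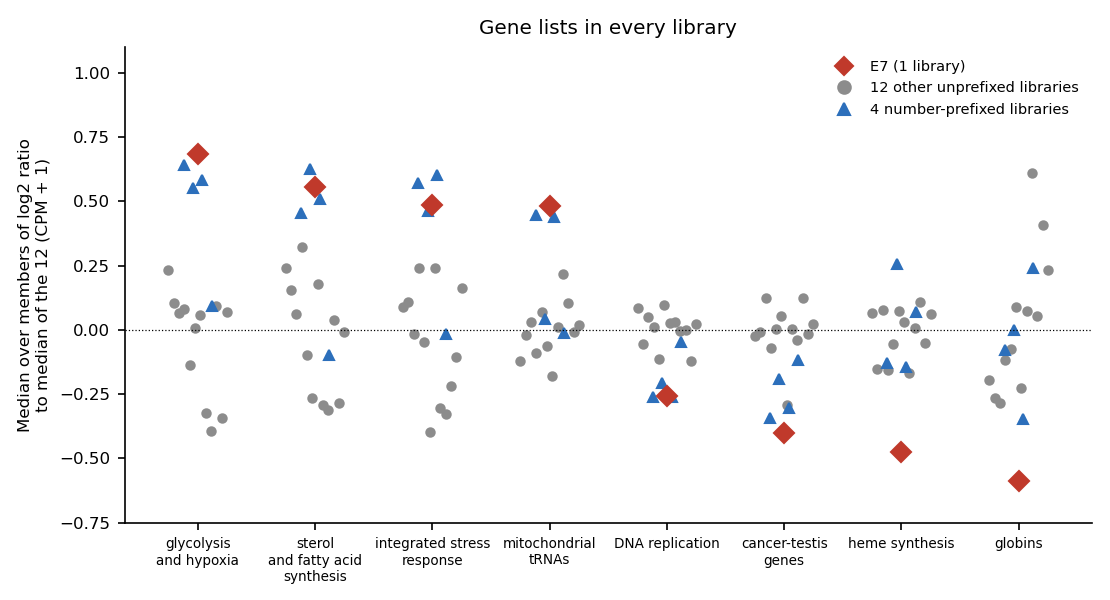
Median over list members of the log2 ratio to the median of the 12, in every library: the red diamond is E7, grey circles are the 12 and blue triangles the 4 number-prefixed libraries. For glycolysis and hypoxia E7 lies at 0.68 beside 3 of the blue triangles, and for globins at -0.59, below all other points.

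A smaller set of genes placed E7 outside all 16 other libraries. E7 lay above all 16 for 3.62% of the 9372 genes and below all 16 for 3.27%. H19, SNHG5 and DYNC1I2 exceeded all 16, as did 7 of the 22 mitochondrial tRNAs: MT-TD, MT-TT, MT-TW, MT-TR, MT-TP, MT-TI and MT-TY. So did SLC2A3, ALDOA and SLC16A3 of 30 glycolysis and hypoxia genes, and 6 of 32 sterol genes, ACSS2, SREBF2, IDI1 and NSDHL among them. In the vesicle coat list the 8 members above the 12 were also above the 16, as were GOLGA2 and GORASP2, STAT5B (35.7 CPM against at most 17.9 CPM in the 4), CISH and CCND2. Below all 16 were HBG2, HBZ, AHSP and KLF1, RFC4, CCNE1, CDC6 and RFC3 of replication, MAGEB2 (19.7 CPM against at least 41.3 CPM in the 4), PSMC5 and LAMP2. None of these was called by edgeR with the 16 as the reference.

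By chromosome, the median log2 ratio of a chromosome's tested genes in E7 lay between -0.08 (chromosome 9) and 0.12 (chromosome 21) over the autosomes and X, whereas the 37 tested mitochondrial genes had a median of 0.22.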

How the data were processed

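K562 RNA was read from 17 libraries with a 3′ kit, per the labels' protocols. The submitters' processing notes name STAR 0.7.2, Salmon 0.7.2, featureCounts, UMI-tools and GRCh38 (hg38), with no order. The sources used here do not give the strand setting or say whether molecular tags were collapsed before counting. The authors deposited, per the file headers, an estimated count and a TPM for each transcript and library. Transcripts were matched to GENCODE 29: 205336 of 228297 matched a gene and 22961 did not. Unmatched reads, 3.32% to 3.60% of a library, stayed out of the tests and were used for the sums named in the text. From the deposited estimated counts, gene sums and CPM were computed. The estimated counts were rounded to whole numbers for edgeR 4.0.16 (quasi-likelihood, R 4.3.3) with no covariates. A mean of at least 5 CPM over the 13 libraries was required, ratios used a pseudocount of 1 CPM, and p-values were adjusted by Benjamini-Hochberg over all genes tested. DESeq2 1.42.0, limma-voom (limma 3.58.1), TMM scaling, the deposited TPM, other filters, other references and leaving out each library were alternatives.

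With each call tested on simulated data of the same 9372 genes, the test recovered 0 of 50 genes changed 1.5-fold, 5 of 50 at 2-fold, 21 of 50 at 4-fold and 37 of 50 at 8-fold, with 3 false among 66 calls. Genes named by rule are those called by edgeR, the 10 with the lowest p, the 10 largest and 10 smallest ratios among genes at 10 CPM or more in E7 or in the median of the 12, up to 4 members per list with the lowest p, the 9 genes of the plasmid labels, and the 6 most abundant genes outside the range in each direction. Others were named after their values were seen. The libraries, gene lists and tests were chosen with earlier results of these data known, and the mitochondrial tRNA list and transcripts running opposite to RRM2 were added later. Columns of samples that could not be mapped numbered 0. Depth and its floors are given with the results. Promoter sequences come from RefSeq (GRCh38.p14) and tRNA sequences from the GENCODE 29 transcripts. A few genes are counted in the lists and are not reported here by name or value, and the figures leave them out.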

Additional observations from a re-analysis of the deposited data

Results flagged for a closer look

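The deposited tables hold transcripts that match no gene of the annotation used here and enter no test, and some of them exceeded in E7 the highest level of the Neg, GFP and RFP libraries. Transcripts named IFI27L1, an interferon-inducible gene family member, summed to 32.3 CPM in E7 against at most 15.2 CPM in those 3, and 6.58 to 15.2 CPM in the 12. Transcripts named MIR210HG, the host of the hypoxia-induced miR-210, summed to 21.2 CPM, or 85 reads, against at most 11.6 CPM in those 3 and 0 to 17.0 CPM in the 12, and the prefixed libraries ran from 6.36 to 26.1 CPM. Transcripts named MSH5-SAPCD1, a read-through of neighbouring genes, summed to 12.4 CPM against 0 in those 3, at most 3.90 CPM in the 12 and 0 to 10.6 CPM in the prefixed libraries. Transcripts named HLA-E summed to 36.8 CPM against at most 29.1 CPM in those 3, while TTR, one of the 12, reached 39.9 CPM.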

How the results depend on the processing

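No paired analysis was possible because E7 is the 1 library under its label, and its replicate number, 1 as for every library alone under its label, was given here and pairs no samples. Against all 16 other libraries edgeR called 0 higher and 0 lower, and 336 genes lay above and 305 below all 16; members above all 16 were 3 for glycolysis and hypoxia, 6 for sterol, 1 for the stress response, 0 for actin-linked and 7 for mitochondrial tRNAs, and members below all 16 were 0 for mitochondrially encoded proteins, 3 for oxidative phosphorylation and 4 for replication. Against Neg, GFP and RFP edgeR called 0 and 0, and against the 4 prefixed libraries 0 higher. With no filter it called 136 higher, 110 of them with a median of 0 reads in the 12, and 17 lower, and 1628 genes lay above. DESeq2 called 11 higher and 11 lower, and limma-voom 35 higher. Lower calls numbered 3 without GFP and 0 with transcripts joined by symbol. By the deposited TPM 342 genes lay above and 828 below, with 8 members above for sterol, 4 for the stress response and 1 for actin-linked, and 11 below for replication. At a mean of at least 20 CPM 407 genes lay above, 4 of them in the stress response. In oxidative phosphorylation 6 lay below with TMM and 8 with DESeq2 size factors, and in replication 11 without GFP. The cause of these shifts was not tested.

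Leaving out each library in turn gave 7 to 9 edgeR calls higher and 1 to 3 lower, 670 to 841 genes above and 586 to 749 below. The ranges of members above were 15 to 18 for glycolysis and hypoxia, 15 to 17 for sterol, 7 to 9 for the stress response, 8 to 9 for actin-linked and 12 to 13 for mitochondrial tRNAs, and of members below 4 to 5 for globins, 5 to 6 for mitochondrially encoded proteins, 13 to 16 for oxidative phosphorylation and 7 to 11 for replication. Over 172 named genes, 3831 alternative values kept direction and side of the threshold, 44 gained a call, 20 lost one and 6 changed sign with no call: UBE2V1 (0.0176 against Neg, GFP and RFP), MT1E (-0.13 against all 16, -0.0187 against those 3), COL1A2 (0.0881 and 0.23) and KRT14 (0.0279 by limma-voom). With 1 library and these depths, changes of 2-fold or less were mostly not recovered in simulated data (5 of 50 at 2-fold). At 4-fold 21 of 50 were recovered, and 15 of these were among the 25 increases. At 8-fold 37 of 50 were recovered, and 22 of these were among the 25 increases. Decreases were thus recovered less often than increases.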
